A study of Mus musculus with 16 samples.

Results

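The members are 31 genes that are known to respond to estrogen in uterus or breast. They were taken by name, without the classical targets Pgr and Greb1, and all 31 were found in a table of 24011 gene symbols. The RNA came from wild-type female C57BL/6 mice whose ovaries were removed at 6 to 7 weeks and whose tissue was taken 1 week later, so every group lacked ovarian estrogen. Whole aortas, or liver fragments cut at the end of the major lobe, were held in DMEM for 4 h with 10 nM 17b-estradiol (E2, the chief estrogen made by the ovary) or with ethanol as the vehicle. This gave 16 libraries in 4 groups of 4, namely aorta with vehicle, aorta with E2, liver with vehicle and liver with E2. The treatment was thus given to tissue outside the body. The comparison asked which genes E2 changed within hours in each tissue.

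Per the labels, 8 libraries were made from 50 ng of RNA with an Ovation kit and run on 2 kinds of instrument. The other 8 were made from 600 ng of RNA after poly-A selection (TruSeq kit), each from a single aorta or liver fragment. The series text describes pools of tissue from 4 mice, which does not cover the single-tissue libraries. In the table each library carries a suffix, o1, o2, n1 or n2, and no label says what the letters stand for. P-values measure the spread between these libraries left after a level is fitted for o1, for o2 and for n. Part of that spread may be technical. Counts assigned to genes ranged from 3896733 to 19823982 per library. A single ribosomal RNA gene, Rn45s, took 25.7% to 34.5% of them in the liver o libraries and 2.94% to 6.20% in the others. The depth left for other genes was thus lower in the liver o libraries than their counts show. Summed over 8 smooth muscle genes, the level was 10432 to 28636 CPM (counts scaled to a library of 1e6 reads) in the 8 aorta libraries and 187 to 465 CPM in the 8 liver libraries. Summed over 8 hepatocyte genes it was 32.9 to 420.1 CPM in aorta and 68379 to 197713 CPM in liver, so both labelled tissues carried their defining genes. The aorta library with vehicle and suffix n2 stood apart in lymphocyte genes. Summed over 9 of them it was at 179 CPM, against 8.85 to 38.0 CPM in the other aorta libraries with vehicle. Its sum over 8 macrophage genes was 142 CPM, within the group's range of 139 to 204 CPM.

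Estrogen acts mainly through nuclear receptors, of which estrogen receptor alpha (Esr1) is the main form in uterus and breast epithelium. The bound receptor occupies estrogen response elements, palindromes of the half-site GGTCA, or binds other factors that are already on the DNA, and so raises or lowers transcription of nearby genes. In epithelium these targets include secreted factors (Tff1, Cxcl12, Stc2), a lysosomal protease (Ctsd) and regulators of growth and cell cycle (Myb, Ccnd1). The genes are given by role, with values in CPM listed for the suffixes o1, o2, n1 and n2. Log2 differences are E2 minus vehicle with the standard error (SE), n = 4 libraries per group.

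Promoter sequence was examined for the estrogen response element because the members are described as estrogen targets. RefSeq promoters of build GRCm38.p6 were found for 23 of the 31 members, with 34 starts, and the 250 bases before each start were searched on both strands. The full palindrome GGTCANNNTGACC was in 0 of 34, and in 0.0639% of the 32851 promoters in the reference. The half-site GGTCA, in either orientation, was in 13 of 34, or 38.2%, from 10 genes, and in 35.2% of all promoters. Receptor sites often lie far from the start, so these windows say only what letters they hold. The promoter of Ctsd, shown because it is a standard estrogen target and its differences had among the narrowest intervals here, is chr7:142387828-142388077 on the minus strand. That of Aqp5, shown for the largest difference with E2 among the members in aorta, is chr15:99590778-99591027 on the plus strand. Both are written 5′ to 3′ with each half-site in capitals, as GGTCA or as its reverse complement TGACC.
Ctsd: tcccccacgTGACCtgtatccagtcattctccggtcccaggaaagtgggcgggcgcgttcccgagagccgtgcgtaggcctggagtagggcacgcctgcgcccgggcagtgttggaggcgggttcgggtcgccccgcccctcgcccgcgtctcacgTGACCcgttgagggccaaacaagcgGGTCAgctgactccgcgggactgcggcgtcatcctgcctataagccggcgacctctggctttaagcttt
Aqp5: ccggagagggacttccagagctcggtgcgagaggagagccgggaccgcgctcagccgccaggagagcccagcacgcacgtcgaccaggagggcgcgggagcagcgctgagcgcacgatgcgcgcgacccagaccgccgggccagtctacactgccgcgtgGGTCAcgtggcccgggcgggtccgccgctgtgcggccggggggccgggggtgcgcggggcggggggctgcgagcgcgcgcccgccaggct
The Ctsd window held 3 half-sites, starting at -241, -94 and -69 from the start, and the Aqp5 window 1, at -90.

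The receptor and both classical targets could be measured in aorta. Pgr, the progesterone receptor, was at 2.38, 3.59, 2.07 and 1.96 CPM with vehicle and at 9.07, 13.0, 9.55 and 7.50 CPM with E2, with no overlap, a log2 difference of 1.97 ± 0.23 (SE). Its adjusted p was 0.0898, from edgeR's quasi-likelihood test with Benjamini and Hochberg adjustment over all 13698 genes tested in aorta. It thus missed the threshold of 0.05, and no gene had a smaller adjusted p. By unadjusted p Pgr ranked 2, so it shared this adjusted p with the gene ranked above it. With the 4 suffixes as a replicate block its adjusted p was 0.0140, and 12 genes passed, 0 of them members. The DESeq2 Wald test gave Pgr an adjusted p of 3.78e-09 and called 24 genes in aorta, again 0 of them members. Greb1, a coactivator of the receptor, differed by 2.33 ± 0.45, with an adjusted p of 0.517 by edgeR, 0.163 with the replicate block and 0.0127 by DESeq2. Esr1 itself differed by 0.15 ± 0.23 in aorta and by 0.02 ± 0.26 in liver, and the second receptor gene, Esr2, had 3 counts over the 4 aorta libraries with vehicle, 2 over those with E2 and 0 in liver. Pgr and Greb1 had too few counts for a test in liver.

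No member passed the test for a change with E2 in either tissue. In aorta 24 of the 31 members had enough counts for a test and 0 of them passed, where the background was 0% of 13698 genes. The members lay on both sides of 0, with 14 higher and 10 lower against 48.7% of all genes higher. The members' median log2 difference was 0.04, and that of all genes -0.01. At an unadjusted p under 0.05 the count was 1 of 24, and the share of all genes was 3.61%. For 18 of the 24 members the 95% interval lay inside -1 to 1 on the log2 scale, that is within a 2-fold change, as for 67% of all genes. The E2 and vehicle ranges did not overlap for 0 of 24 members, and for 0.402% of all genes. Some lists of cell-type genes lay to one side in aorta. Adipocyte genes did not, with 3 higher and 4 lower, and smooth muscle genes had 6 higher and 2 lower. Of 6 macrophage genes tested, 6 were below 0 with E2 (median -0.09). Of 6 hepatocyte genes tested, 6 were below 0 with E2 (median -0.87, 5 with an unadjusted p under 0.05), and of 9 lymphocyte genes 9 were (median -1.39), with 0 called in either list. The lymphocyte sum was by far the highest in the vehicle library n2, at 179 CPM. It was higher with E2 than with vehicle in o1 and n1 and lower in o2 and n2. The hepatocyte sum was 420.1, 88.9, 57.2 and 75.6 CPM with vehicle and 183, 62.9, 36.8 and 32.9 CPM with E2, and the part of these cells in the members' values was not tested.

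In liver 20 members were tested and 0 passed, with 0% of 11726 genes called by edgeR and a smallest adjusted p of 0.939 over all genes. Of these, 8 were higher and 12 lower, where 49.3% of all genes were higher. The members' median log2 difference was -0.19 and that of all genes -0.01. Unadjusted p was under 0.05 for 2 of 20 members, Sgk3 and Gdf15, and for 4.28% of genes. For 12 of 20 members the 95% interval lay inside -1 to 1, and for 58.9% of all genes. E2 and vehicle ranges did not overlap for 0 of 20 members, and for 0.358% of all genes. Several lists of cell-type genes lay mostly to one side in liver, with 0 called. Of 6 lymphocyte genes tested, 6 were below 0 with E2 (median -0.49), and of 3 neutrophil genes 3 were. Of 8 hepatocyte genes, 7 were above 0 (median 0.21). Of 8 macrophage genes, 8 were below 0 (median -0.47, 2 with an unadjusted p under 0.05). The macrophage sum was 739, 765, 284 and 393 CPM with vehicle and 666, 499, 276 and 229 CPM with E2. The part of these cells in the members' values was not tested.

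**Figure D1:**
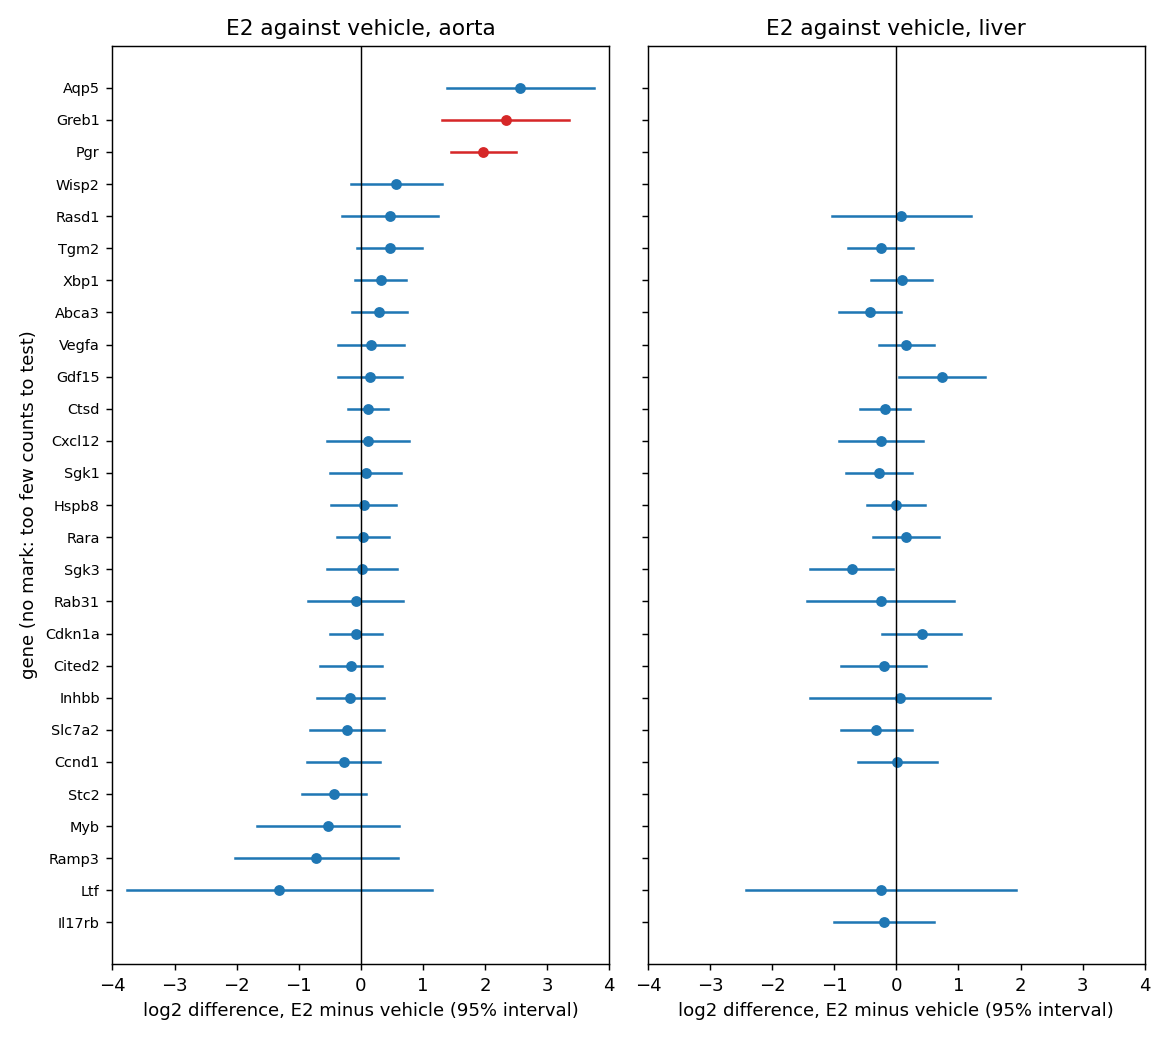
Log2 difference between E2 and vehicle (x axis, log2 scale; points are estimates, lines 95% intervals) for each member with enough counts, in aorta (left) and liver (right), with the classical targets Pgr and Greb1 in red. Most intervals cross 0, those of Aqp5, Pgr and Greb1 in aorta lie above it, and in liver Gdf15 (0.74) and Sgk3 (-0.72) lie just off 0.

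Of the secreted factors, 7 of 9 were tested in aorta and 5 in liver. Wisp2, a matricellular protein of the CCN family, was at 3.57, 2.62, 14.8 and 26.5 CPM in aorta with vehicle and at 6.05, 1.67, 34.4 and 46.5 CPM with E2. It was higher with E2 in o1, n1 and n2 and lower in o2, and the groups overlapped widely, with the n libraries high in both treatments. Its log2 difference was 0.57 ± 0.33 (SE; 95% interval -0.16 to 1.31, unadjusted p = 0.113). Stc2, a secreted glycoprotein of the stanniocalcin family, was at 5.27, 9.22, 9.19 and 8.77 CPM with vehicle and at 4.53, 5.32, 5.97 and 8.48 CPM with E2. Every E2 library was lower than the vehicle library with its suffix, although the ranges overlapped, and the difference was -0.43 ± 0.23 (unadjusted p = 0.0911). Stc2 was the 1 member of 24 that was lower in all 4 suffixes, against 6.42% of all genes.

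Gdf15, a stress-induced member of the TGF-beta family, was at 1.87, 1.79, 333 and 523 CPM in aorta with vehicle and at 2.72, 2.76, 421 and 395 CPM with E2. In liver it was at 5.60, 3.86, 292 and 115 CPM with vehicle and at 4.03, 5.76, 366 and 481 CPM with E2. The 2 kinds of suffix differed far more than the treatments, and the liver difference of 0.74 ± 0.33 (unadjusted p = 0.0388, adjusted p = 0.939) was smaller when n2 was left out. Without the n2 libraries it was 0.23 ± 0.25, in the o libraries alone 0.11 ± 0.70 and in the n libraries alone 1.08 ± 0.39. In aorta the difference was 0.15 ± 0.23.

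Cxcl12, the chemokine ligand of Cxcr4, was at 3.91, 5.29, 37.9 and 15.4 CPM in aorta with vehicle and at 6.05, 4.42, 30.7 and 27.4 CPM with E2, a difference of 0.11 ± 0.29. Vegfa, the main angiogenic growth factor, differed by 0.16 ± 0.23 in aorta and 0.16 ± 0.21 in liver, with levels of 118 to 380.5 CPM over all libraries. Inhbb, a subunit of activins and inhibins, differed by -0.17 ± 0.24 in aorta and 0.06 ± 0.68 in liver. Ltf, lactoferrin, an iron-binding protein of secretions and of neutrophil granules, was at 0.340, 2.28, 0.955 and 20.3 CPM in aorta with vehicle and at 1.66, 0.385, 0.577 and 6.35 CPM with E2. The library with vehicle and suffix n2 was the highest, and the difference of -1.32 ± 1.09 was -0.71 without the n2 libraries. In that library the sum over 6 neutrophil genes was 72.6 CPM, against 1.36 to 12.6 CPM in the other aorta libraries with vehicle, and the part of those cells in the Ltf value was not tested. Here, as for every bulk value below, fewer cells of a type and less RNA per cell cannot be told apart.

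Tff1, a trefoil peptide of secretory epithelium, had 0 counts in all 16 libraries. A library with 0 counts allows a level of up to 3 counts, which is 0.116 to 1.01 CPM at these depths, counting error only. Agr2, a disulfide isomerase of secretory epithelium, had 4 counts over the aorta o libraries, 7 over the aorta n libraries and 0 in liver, so neither gene could be tested.

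Among the enzymes, Ctsd, the lysosomal protease cathepsin D and the gene of the first promoter shown, was at 353, 422, 514 and 455 CPM in aorta with vehicle. With E2 it was at 402, 469, 483 and 552 CPM, higher in 3 of 4 suffixes and with overlapping ranges. The difference was 0.12 ± 0.14 with a 95% interval of -0.21 to 0.44. In liver every E2 library was lower than the vehicle library of its suffix, with differences of -0.0036 to -0.31 on the log2(CPM + 1) scale, and the difference was -0.18 ± 0.19 (95% interval -0.58 to 0.22).

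Tgm2, tissue transglutaminase, a crosslinking enzyme of matrix and cells, was at 349, 480.4, 1159 and 592 CPM in aorta with vehicle and at 369, 709.8, 1498 and 1210.3 CPM with E2. It was higher with E2 in all 4 suffixes, within the n libraries without overlap and over all 4 with overlap. The difference was 0.46 ± 0.23 (95% interval -0.05 to 0.98, unadjusted p = 0.0739), and 0.34 ± 0.14 without the n2 libraries. In liver it was -0.25 ± 0.24, and -0.05 ± 0.22 without the n2 libraries. Klk1b5, a kallikrein protease, had 0 counts in all 16 libraries.

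Of the nuclear regulators and cell-cycle genes, Xbp1, a transcription factor of the unfolded protein response, was at 215, 245, 300.4 and 193 CPM in aorta with vehicle. With E2 it was at 226, 340.2, 342 and 304 CPM, again higher in all 4 suffixes, and the ranges overlapped. The difference was 0.32 ± 0.18 (95% interval -0.09 to 0.73, unadjusted p = 0.113). Xbp1 and Tgm2 were the 2 members of 24 higher in all 4 suffixes, against 8.07% of all genes, so the share of members, 8.33%, was near the background. In liver Xbp1 differed by 0.08 ± 0.23.

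Ccnd1, cyclin D1, which drives entry into the cell cycle, was at 4.25, 2.18, 7.92 and 10.0 CPM in aorta with vehicle and at 4.23, 2.44, 6.66 and 5.60 CPM with E2. Only the n libraries were lower with E2 by more than 1 CPM, and the difference was -0.28 ± 0.26, or -0.06 ± 0.28 without the n2 libraries. In liver it differed by 0.01 ± 0.30. Rara, retinoic acid receptor alpha, differed by 0.03 ± 0.18 in aorta and 0.16 ± 0.25 in liver. Cited2, a transcriptional coregulator, differed by -0.16 ± 0.22 and -0.20 ± 0.32 in the same order. Cdkn1a, the cell-cycle inhibitor p21, differed by -0.09 ± 0.19 and 0.41 ± 0.30.

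Myb, a transcription factor of dividing progenitor cells, was at 3.74, 3.83, 5.17 and 12.8 CPM in aorta with vehicle and at 3.02, 1.73, 11.7 and 2.53 CPM with E2. One n library of each treatment was high, n2 with vehicle and n1 with E2, and the difference was -0.54 ± 0.51. Without the n2 libraries it was 0.05 ± 0.39. The lymphocyte genes had summed levels of 8.85, 38.0, 15.7 and 179 CPM with vehicle and 16.9, 14.8, 36.3 and 16.8 CPM with E2. Within each treatment their sum was highest in the same library as Myb. In o1 their sum was higher with E2, while Myb was lower. Their part in the Myb values was not tested. Myb had too few counts for a test in liver.

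All 4 kinases and small GTPases were tested in both tissues. Sgk3, of the family of serum- and glucocorticoid-induced kinases, was at 39.2, 25.1, 4.13 and 4.59 CPM in liver with vehicle and at 31.4, 12.2, 3.30 and 1.35 CPM with E2. Every E2 library was lower than the vehicle library with its suffix, while the ranges overlapped. The difference was -0.72 ± 0.32 (95% interval -1.39 to -0.05, unadjusted p = 0.0375), and its adjusted p was 0.939. Sgk3 and Ctsd were the 2 members of 20 lower in all 4 suffixes in liver, against 6.38% of all genes, and 0 of 20 was higher in all 4, against 5.55%. These counts take libraries of equal suffix as pairs, for which the liver n libraries give no support (correlation -0.0511). Ctsd differed in n1 by only -0.0036 on the log2(CPM + 1) scale. In aorta Sgk3 differed by 0.02 ± 0.25.

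Sgk1, the closely related kinase that glucocorticoids and aldosterone induce, differed by 0.08 ± 0.25 in aorta and -0.28 ± 0.25 in liver, the latter -0.08 ± 0.23 without the n2 libraries. Rasd1, a small GTPase induced by glucocorticoids, was at 1.53, 1.31, 27.8 and 18.2 CPM in aorta with vehicle and at 1.51, 4.75, 26.8 and 21.5 CPM with E2, a difference of 0.47 ± 0.34. It was higher with E2 in o2 and n2 only. Rab31, a GTPase of vesicle transport, differed by -0.08 ± 0.34 in aorta and -0.25 ± 0.56 in liver.

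**Figure D2:**
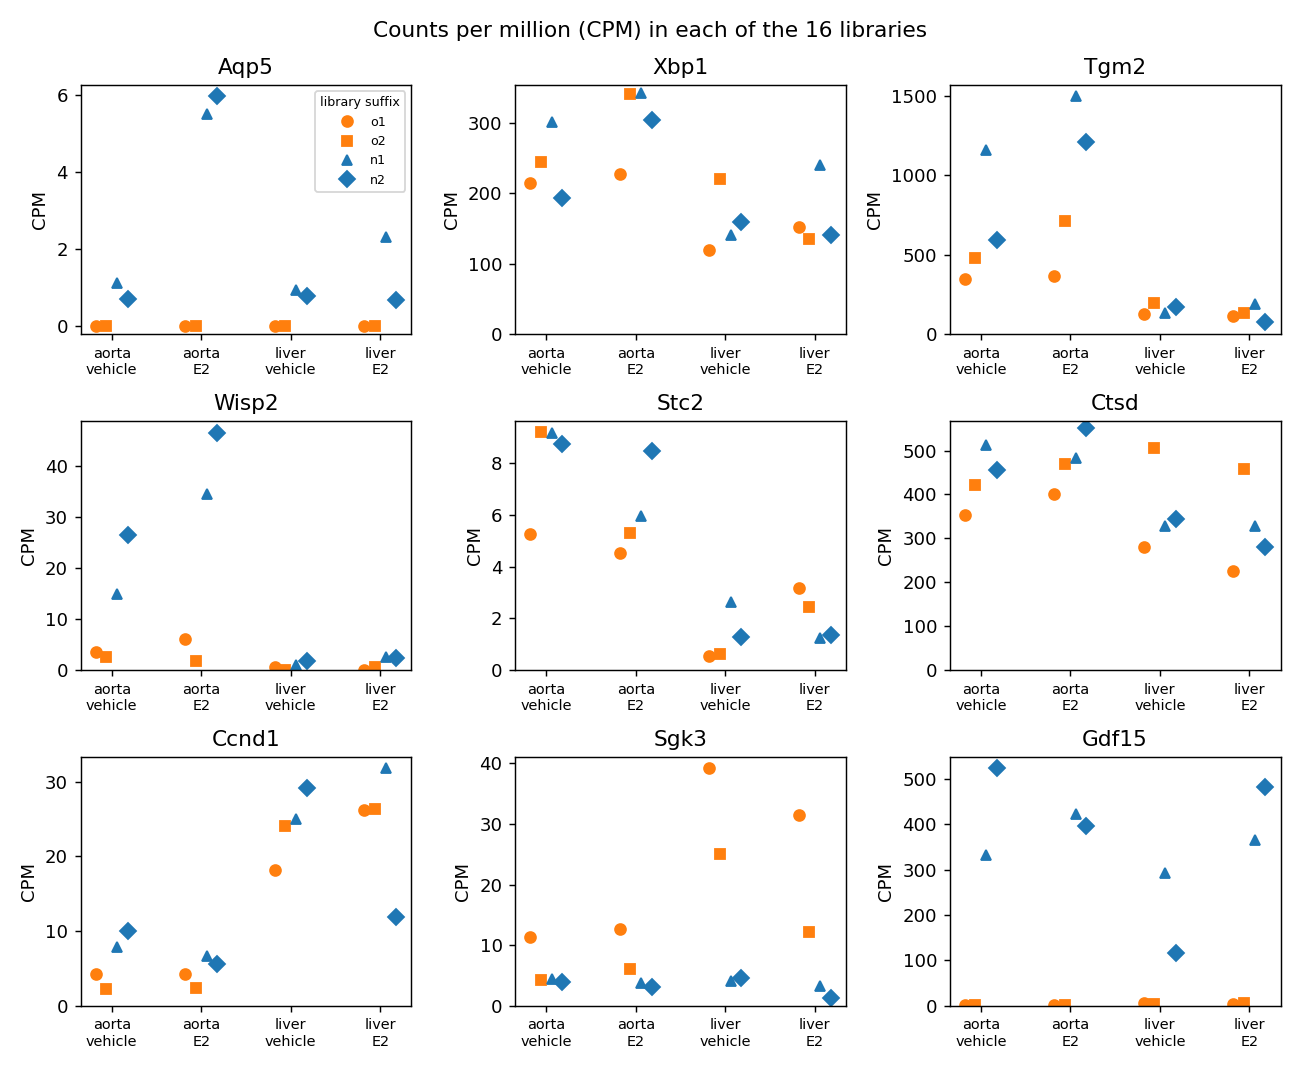
CPM of 9 members in each of the 16 libraries (y axis, CPM, with its own scale for each gene; x axis, group; orange marks o libraries and blue marks n libraries, with shapes for the suffix). Aqp5 was at 0 in every o library, Gdf15 was far higher in the n libraries of both tissues, and the E2 and vehicle ranges of a tissue overlapped for each of these genes.

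Of the receptors, transporters and channels, Aqp5, a water channel of secretory epithelium and the gene of the second promoter shown, had the largest difference of any member in aorta. It had 0 counts in all 8 o libraries of both tissues, which allows up to 0.146 to 0.510 CPM in the aorta ones. In the n libraries it was at 1.11 and 0.704 CPM with vehicle and at 5.50 and 5.96 CPM with E2, with no overlap between these pairs. The difference was 2.57 ± 0.50 (95% interval 1.38 to 3.76, unadjusted p = 0.00135), 5.93-fold, and its adjusted p was 0.741, so it was not called. Over 15 other settings the difference was 2.32 to 2.998 and the adjusted p 0.0991 to 1.00. The value rests on 2 libraries in each treatment. Over 7 genes of lung and airway epithelium, where Aqp5 is also expressed, the summed level in the aorta n libraries was 1.11 and 1.64 CPM with vehicle and 0.616 and 2.21 CPM with E2. Over 7 genes of luminal epithelium it was 109 and 123 CPM with vehicle and 63.8 and 84.2 CPM with E2, lower with E2 without overlap, and so opposite in direction to Aqp5. Of 6 luminal genes tested in aorta, 6 lay below 0, with a median log2 difference of -0.71 and 0 called. The part of epithelium in the Aqp5 value was not tested. In liver the n libraries gave 0.938 and 0.791 CPM with vehicle and 2.32 and 0.676 CPM with E2, without a test.

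Abca3, a lipid transporter of the ABC family, was at 8.51, 9.65, 19.7 and 20.1 CPM in aorta with vehicle and at 7.71, 15.9, 22.1 and 27.0 CPM with E2. In liver it was at 92.8, 91.0, 71.8 and 147 CPM with vehicle and at 80.9, 60.4, 92.5 and 66.9 CPM with E2. It was higher with E2 in 3 of 4 aorta suffixes and lower in 3 of 4 liver suffixes. The differences were 0.30 ± 0.19 in aorta and -0.43 ± 0.23 in liver. The vehicle library n2, at 147 CPM, was the highest of the liver libraries, and without the n2 libraries the liver difference was -0.16 ± 0.22.

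Slc7a2, a transporter of arginine and lysine, differed by -0.23 ± 0.26 in aorta and -0.32 ± 0.27 in liver. Ramp3, which alters the calcitonin receptor-like receptor so that it binds adrenomedullin, was at 0.340, 0.776, 6.09 and 20.04 CPM in aorta with vehicle and at 1.36, 0.705, 3.77 and 6.43 CPM with E2. The vehicle library with suffix n2 was again the highest, and the difference of -0.72 ± 0.58 became -0.10 without the n2 libraries. Il17rb, a receptor subunit for IL-17 family cytokines, was tested in liver only and differed by -0.20 ± 0.38. Amhr2, the receptor of anti-Müllerian hormone, reached at most 3.38 CPM in any library and was not tested within a tissue.

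Hspb8, a small heat shock protein, differed by 0.04 ± 0.23 in aorta and by -0.0019 ± 0.22 in liver. Susd3, a membrane protein, and Calb1, the calcium-binding protein calbindin-D28k, had too few counts for a test in either tissue, with at most 2.19 and 0.704 CPM.

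Whether E2 acted differently on the members in the 2 tissues was tested directly as an interaction over all 16 libraries. Of 26 members tested, 0 of 26 were called, as for 0% of 14190 genes, and 16 were above 0, that is higher in aorta relative to liver, against 50.6% of all genes. Unadjusted p was under 0.05 for 1 member, Abca3, against 5.36% of all genes. Its difference between tissues was 0.74 ± 0.33 (95% interval 0.04 to 1.45, unadjusted p = 0.0404, adjusted p = 0.875). Tgm2 (0.72 ± 0.38) and Sgk3 (0.75 ± 0.40) had similar sizes and wider errors. Without the n2 libraries the difference between tissues was 0.42 ± 0.32 for Abca3, 0.37 ± 0.28 for Tgm2 and 0.74 ± 0.41 for Sgk3. The SE of a member's interaction had a median of 0.43. Pgr, with few counts in liver, had a difference between tissues of 4.09 and was not called either. Differences well above 1 SE could thus be missed in these libraries.

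A further 38 genes with reported estrogen responses in other work, Myc and Areg among them, served as a wider list, of which 37 are in the table. In aorta 0 of 36 tested passed, 20 were higher and 16 lower, and the median log2 difference was 0.03. Areg, amphiregulin, a growth factor of the EGF family, had the smallest p, with a difference of -0.90 ± 0.30 (unadjusted p = 0.0142, adjusted p = 1.00). The next were Myc, a growth-promoting transcription factor, at -0.25 ± 0.14 and Slc9a3r1, a scaffold protein of the cell membrane, at 0.31 ± 0.21. In liver 0 of 29 passed, 14 were higher and 15 lower, and the median was -0.01. Myc differed by 0.71 ± 0.24 (unadjusted p = 0.0106, adjusted p = 0.939), Fkbp5, a chaperone of steroid receptors, by -0.65 ± 0.28 and Krt19, a keratin, by 0.49 ± 0.25.

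Of all comparisons made here, that of the tissues was the one in which members passed the test. In the libraries with vehicle 23 members were compared between aorta and liver, with an adjusted p under 0.05 and an absolute log2 difference over 1 as the threshold. The levels of 6 members were higher in aorta and those of 4 were lower, against 24.1% and 23.4% of 12607 genes, while the members' shares were 26.1% and 17.4%.

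Among the nuclear regulators Cdkn1a was at 135, 132, 314 and 216 CPM in aorta and at 15.7, 23.2, 10.1 and 15.7 CPM in liver, with no overlap and a log2 difference of 3.55 ± 0.40 (adjusted p = 1.8e-05). Myb was higher in aorta by 4.33 ± 0.77 and Rara by 1.80 ± 0.28. Ccnd1 was lower, at 4.25, 2.18, 7.92 and 10.0 CPM in aorta and 18.1, 24.1, 24.9 and 29.1 CPM in liver, a difference of -2.19 ± 0.40 (adjusted p = 0.000731). Cdkn1a and Ccnd1, both cell-cycle genes, thus lay in opposite directions. The share of all genes without overlap between the tissues was not counted, and 47.5% of all genes passed the threshold in either direction.

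Of the secreted factors Wisp2 (3.95 ± 0.62) and Stc2 (2.80 ± 0.53) were higher in aorta, each without overlap, and Cxcl12 was lower (-1.68 ± 0.37), with overlap. Tgm2 was higher by 1.94 ± 0.36. Abca3 was lower in aorta, at 8.51 to 20.1 CPM against 71.8 to 147 CPM in liver, with a difference of -2.91 ± 0.35 (adjusted p = 2.53e-05). Il17rb was lower (-4.53 ± 0.66), with at most 1.33 CPM in any aorta library with vehicle.

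**Figure D3:**
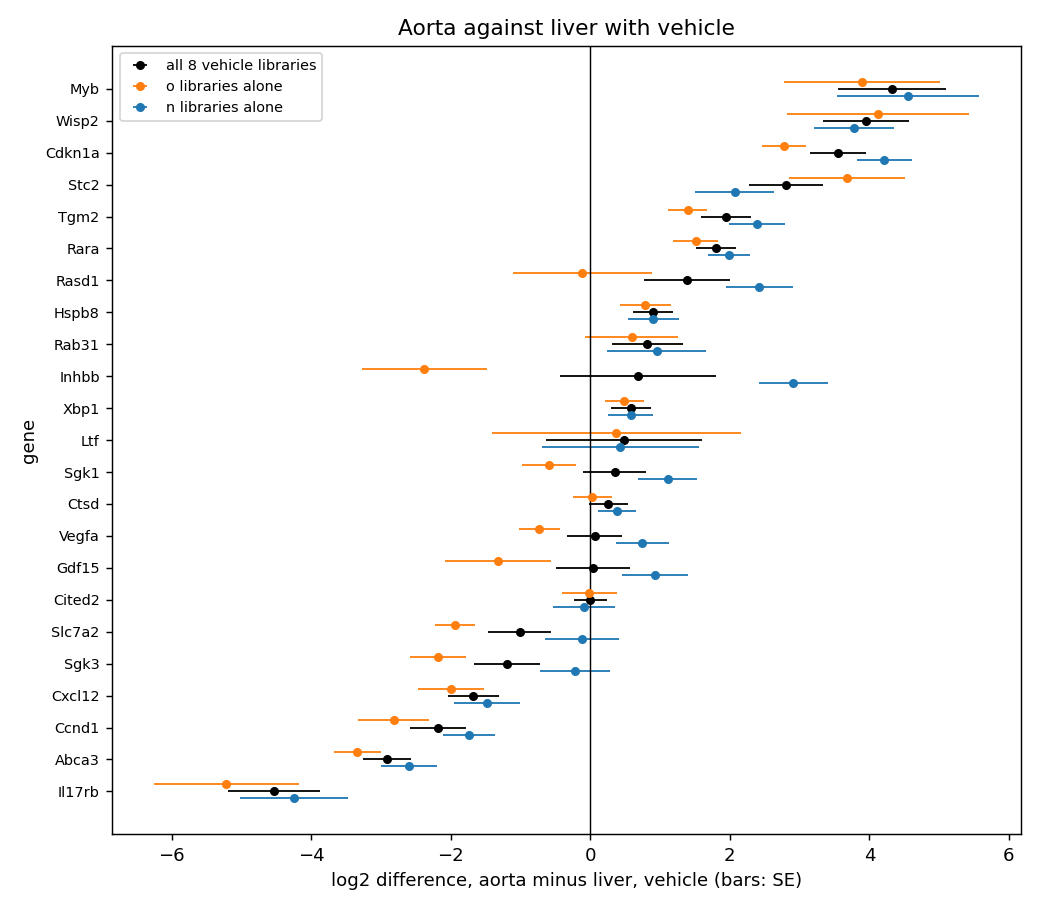
Log2 difference between aorta and liver with vehicle (x axis, log2 scale; points are estimates and bars the SE) for the 23 members tested, over all 8 vehicle libraries (black), the o libraries alone (orange) and the n libraries alone (blue). Myb, Wisp2, Cdkn1a, Stc2, Tgm2 and Rara lie above 0 and Cxcl12, Ccnd1, Abca3 and Il17rb below 0 in all 3. Inhbb changes side between o (-2.38) and n (2.91) libraries, as do Gdf15, Sgk1, Vegfa and Rasd1.

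Some members that missed the threshold differed between the 2 kinds of suffix. Inhbb differed by 0.68 ± 1.12 over all vehicle libraries, by -2.38 ± 0.90 in the o libraries alone (adjusted p = 0.0393) and by 2.91 ± 0.50 in the n libraries alone (adjusted p = 0.00300). With vehicle it was at 1.36, 0.679, 22.7 and 18.001 CPM in aorta and at 2.67, 7.61, 3.19 and 1.74 CPM in liver. Slc7a2 differed by -1.94 ± 0.28 in the o libraries and by -0.12 ± 0.53 in the n libraries, and Sgk3 by -2.18 ± 0.40 and -0.22 ± 0.50. Rasd1 went the other way, with -0.12 ± 0.99 in the o libraries and 2.42 ± 0.48 in the n libraries. Gdf15, Sgk1 and Vegfa changed side, as Inhbb did. They differed by -1.32 ± 0.76, -0.59 ± 0.38 and -0.73 ± 0.29 in the o libraries. In the n libraries the differences were 0.92 ± 0.47, 1.11 ± 0.43 and 0.74 ± 0.38, in the same order.

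The members' levels also differed between the letters of the suffix. In aorta all 4 n libraries lay above all 4 o libraries for 13 of 24 tested members, against 37.6% of genes. The reverse held for 1 member, Slc7a2, against 29.8% of genes. In liver the counts were 4 of 20, against 35.8%, and 3 of 20, against 35.2%. The 3 in liver were Slc7a2, Sgk3 and Vegfa. These shares are descriptions of the same libraries, and whether they come from the kit, the RNA amount or the animals cannot be told apart.

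Of the tested members with counts in both kinds of library, Gdf15 had the widest gap, with means of 2.29 CPM in o libraries and 418 CPM in n libraries of aorta (183-fold) and of 4.81 and 314 CPM in liver (65.1-fold). In aorta the mean of the n libraries was also above that of the o libraries for Inhbb (20.3-fold), Ramp3 (11.4-fold), Rasd1 (10.4-fold) and Wisp2 (8.79-fold). Inhbb and Rasd1 showed no such gap in liver, at 1.15-fold and 1.48-fold. Slc7a2 was lower in n libraries, with 11.4 against 49.2 CPM in aorta and 12.2 against 173 CPM in liver.

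**Figure D4:**
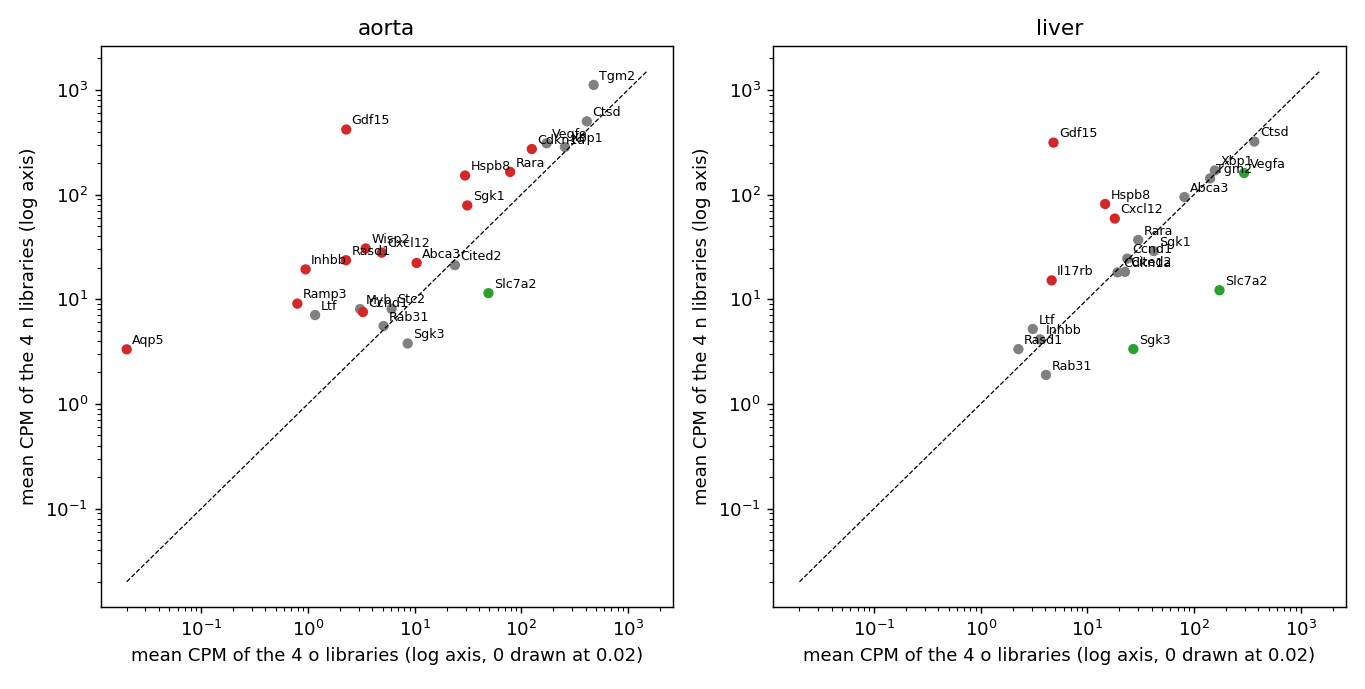
Mean CPM of the 4 n libraries (y axis, log axis) against that of the 4 o libraries (x axis, log axis) for each tested member in aorta (left) and liver (right), with the line of equal levels dashed. Red marks members whose n libraries all lie above the o libraries, green the reverse and grey an overlap, and Gdf15 lies far above the line in both tissues (183-fold and 65.1-fold).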

How the data were processed

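RNA sequencing was measured in 16 libraries of aorta or liver explants. The deposited table, a single table for the series, holds raw counts per gene symbol, entered as estimated counts because its last line is a percentage. Every gene value was whole, so rounding changed nothing. The submitters' processing notes name Bowtie 0.12.5, HTSeq 0.4.5p7, edgeR 3.4.2 and mouse build mm9, without roles. Annotation, use of strand and read filters: not given in the sources used here. A gene's reads may therefore hold those of an overlapping or antisense gene. Reads in no annotated gene made up 48.0% to 75.2% of a library. These and the other lines that name no gene, 8 in all, stayed out of library sizes and tests.

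Columns were assigned to groups by tissue and treatment, and to a batch of 3 levels (o1, o2, n). The test was that of edgeR 4.0.16 in R 4.3.3 (glmQLFit and glmQLFTest, TMM, filterByExpr by group with minimum count 10 and total 15), with Benjamini-Hochberg adjustment over all genes tested and a threshold of 0.05. The design matrix held the batch. The SE is the log2 difference divided by the square root of F. CPM are counts scaled to 1e6 on TMM sizes over all 16 libraries, and differences within a suffix use log2(CPM + 1). The steps were tested on simulated data. Other settings included DESeq2 1.42.0, other scalings and filters, each letter alone and each library left out.

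The labels do not say that suffixes pair libraries. The correlation of deviations from the group mean between libraries of the same suffix was 0.89 to 0.93 in aorta and 0.87 to 0.92 in liver. With the mean of each letter removed it was 0.506 (o) and 0.433 (n) in aorta and 0.298 and -0.0511 in liver, so the pairing of liver n libraries has no support in the data. All 31 members are named, with Pgr, Greb1 and the estrogen receptor genes for comparison and, of the wider list, the 3 genes of smallest p in each tissue. The members and lists were chosen with earlier results of these data known.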

Additional observations from a re-analysis of the deposited data

Results flagged for a closer look

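The members' values within each group of 4 libraries were examined for a library far from the other 3, by the gap to the nearest value as a share of the group's range (Dixon's test at the 95% level). Of 88 groups of values, 8 had one. The test's rate of 1 in 20 assumes 4 like libraries. Each group here mixed o and n libraries, so the count cannot be set against chance. Myb was at 12.8 CPM in the aorta library with vehicle and suffix n2, against 3.74 to 5.17 CPM in the other 3, and at 11.7 CPM in the aorta library with E2 and suffix n1, against 1.73 to 3.02 CPM. Ltf was at 20.3 CPM in that same vehicle library, against 0.340 to 2.28 CPM. Vegfa was at 380.5 CPM in the aorta library with vehicle and suffix n1, against 154 to 189 CPM.

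In the aorta library with vehicle and suffix o1, Sgk3 was high at 11.4 CPM, against 3.91 to 4.34 CPM, and Stc2 was low at 5.27 CPM, against 8.77 to 9.22 CPM. The sum over 8 hepatocyte genes was 420.1 CPM in that library, against 57.2 to 88.9 CPM in the other aorta libraries with vehicle, and its part in these values was not tested. In liver, Cxcl12 was at 79.0 CPM in the E2 library n1, against 13.2 to 22.3 CPM, and Sgk1 at 58.3 CPM in the vehicle library o2, against 31.0 to 34.2 CPM. At the flagged suffix, E2 minus vehicle as log2(CPM + 1) was -0.0083 for Vegfa, -0.036 for Cxcl12 and 0.14 for Sgk3. It was -0.18 for Stc2 and -0.20 for Sgk1, so in these genes the other treatment had a similar value. For Myb it was -1.97 in n2 and 1.04 in n1, and for Ltf -1.54. A shift shared by both treatments in o1, or in o2, is taken up by the batch level of the fit. It is therefore not part of the errors of the E2 differences. The spread left between libraries after batch and treatment is part of them.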

How the results depend on the processing

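Over 24 planned settings and 1 added after seeing the data (without the n2 libraries), the count of members called with E2 was 0 under every setting run in aorta, liver and their difference. Over the settings of the comparison between tissues it was 9 to 13. Counts over all genes moved more. In aorta, where the count is 0, it was 24 with DESeq2, 12 with the replicate block, 33 in the o libraries alone, 35 without the n2 libraries and 0 to 17 with one library left out, the 17 without the vehicle library n2. In liver it was 6 with no filter, 5 in the o libraries alone, 1 in the n libraries alone and 0 to 1 with one library left out. For the difference between tissues in the E2 effect it was 10 with DESeq2, 1 with the replicate block, 2 in the o libraries alone, 1 without the n2 libraries and 0 to 4 with one library left out. Between tissues 2447 genes were called with no batch covariate, and 5473 to 6011 with one library left out. The difference between tissues in the E2 effect on Pgr was -2.41 to 5.99 with one library left out, against 4.09 over all libraries, the negative values without a liver o2 library. Inhbb between tissues was -2.38 in the o libraries alone. The replicate block changed no call of a member. Between tissues, Hspb8, Rasd1, Sgk3 and Slc7a2 passed the threshold under 5, 5, 6 and 3 settings, and Cxcl12 lost it under 1, with no batch covariate. Genes under 3 counts in a library, Tff1 and Klk1b5 among them, are limited by depth.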
